A study of Mus musculus with 30 samples.

Results

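Messenger RNA of 35 genes that mark endothelial cells, or that these cells use to capture leukocytes, was followed in tumours grown under the skin of mice from MC38 cells, a colon carcinoma line. The genes were chosen by symbol, with the condition that a gene had a nonzero count in 5 or more libraries. All 35 met it, out of 24557 gene entries in the count table, and all 35 were among the 15482 genes that passed the low-count filter and were tested. The tumours came from 6 groups of 5 mice: mXTX301 (0.39 mg/kg), its unmasked positive control (0.03 mg/kg) or vehicle, each taken at day 4 or day 7 after 1 intravenous injection. mXTX301 is a masked mouse surrogate of interleukin-12, a cytokine known for inducing interferon-gamma in T and natural killer lymphocytes. All 30 mice were female C57BL/6J animals that had received MC38 cells under the skin of the flank at 10 weeks of age, and treatment started at tumour volumes of 200 to 300 mm3. All groups share 1 implanted cell line at 1 subcutaneous site. The doses of the masked and the unmasked molecule differ, so a difference between them is not one at matched dose.

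Endothelial cells line blood and lymphatic vessels. They hold to one another through junction proteins such as VE-cadherin, keep their identity through transcription factors of the SoxF and ETS families, and read growth and guidance cues through angiopoietin, TGF-beta, Slit and Notch receptors. When inflammatory cytokines reach them, venular endothelial cells display selectins and VCAM-1, which slow and hold passing leukocytes. Tumour vessels use the same parts for sprouting, in which Notch signalling separates leading tip cells from the stalk that follows.

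The bases upstream of the start sites of 4 members are shown as examples. Sele and Selp had 2 of the 3 highest fold changes at day 7 of mXTX301, while Dll4 and Tek were among the genes that fell at day 4 of the unmasked control. Each line gives the 250 bases before the start, 5′ to 3′, on the plus strand of GRCm38.p6, from the RefSeq promoter table. Capitals mark matches to GGG and CC spaced by 5 bases of any kind, a pattern of the NF-kappaB family of inflammatory transcription factors, and to AGGAAG, a pattern of the ETS family to which Erg belongs. Both strands were searched, and no 2 marked matches overlap.
Sele (chr1:164047984-164048233): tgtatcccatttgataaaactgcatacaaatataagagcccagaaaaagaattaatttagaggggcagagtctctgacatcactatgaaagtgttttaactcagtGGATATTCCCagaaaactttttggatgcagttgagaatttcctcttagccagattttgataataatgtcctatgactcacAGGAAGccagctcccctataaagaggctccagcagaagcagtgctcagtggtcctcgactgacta
Selp (chr1:164115014-164115263): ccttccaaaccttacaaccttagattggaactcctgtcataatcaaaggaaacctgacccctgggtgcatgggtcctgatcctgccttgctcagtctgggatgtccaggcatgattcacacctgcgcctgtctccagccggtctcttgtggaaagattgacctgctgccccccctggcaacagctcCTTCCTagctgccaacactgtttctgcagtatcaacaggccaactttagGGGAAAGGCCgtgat
Dll4 (chr2:119325534-119325783): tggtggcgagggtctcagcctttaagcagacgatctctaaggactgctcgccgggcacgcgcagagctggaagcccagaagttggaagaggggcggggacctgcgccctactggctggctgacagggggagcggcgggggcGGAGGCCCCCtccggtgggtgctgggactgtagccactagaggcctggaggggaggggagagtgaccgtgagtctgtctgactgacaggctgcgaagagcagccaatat
Tek (chr4:94739039-94739288): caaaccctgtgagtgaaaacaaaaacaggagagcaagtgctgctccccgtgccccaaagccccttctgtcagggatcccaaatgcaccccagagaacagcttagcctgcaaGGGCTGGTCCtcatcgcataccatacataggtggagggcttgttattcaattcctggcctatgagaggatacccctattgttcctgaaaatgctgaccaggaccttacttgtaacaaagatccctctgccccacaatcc
The upstream bases of Sele and of Selp held 1 match to each pattern, and those of Dll4 and of Tek held 1 match to the NF-kappaB pattern and 0 to the ETS pattern. The 4 do not stand for the rises and falls. Ackr1, the other of the 3 highest, held 0 NF-kappaB and 3 ETS matches, in a window mostly inside its own exons. Of other members that fell with the unmasked control, Egfl7, Emcn, Erg, Rasip1, Robo4 and Tie1 held the ETS pattern in at least 1 window. Tal1 did not. The promoter table had 24 windows for 19 of the 35 members. The NF-kappaB pattern was in 13 of these 24 windows (54.2%) and in 45.8% of all 32851 windows of the same length. The ETS pattern was also in 13 of the 24 (54.2%), against 29.5% of all windows. A match describes the letters only.

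The libraries held between 48.3 M and 85.2 M counts (M, mega). Skin genes stood apart in 8 libraries, at summed levels of 145 to 1040 CPM (TMM-scaled counts per 1 M), against 10.9 to 54.8 CPM in the other 22. These 8 were 1 library of each day 4 group, 1 vehicle library at day 7 and 2 of each drug group at day 7. Pecam1 and Cdh5 were detected in all 30 libraries, never below 24.2 and 25.4 CPM. Replicate 5 of mXTX301 at day 7 was the highest of its group in 30 of the 35 members, and also had the highest summed fibroblast (8980 CPM) and adipocyte (155 CPM) genes of its group. Its sums of macrophage (4462 CPM), platelet (27.9 CPM), lymphatic (116.7 CPM), mast-cell (28.4 CPM) and pericyte (410 CPM) genes were the highest of the group too. Its T-cell, skin and skeletal muscle sums were not. Replicate 1 of the unmasked control at day 7 was the lowest of its group in 30 of the 35. Replicate 3 of mXTX301 at day 4, replicate 4 of the unmasked control at day 7 and replicate 3 of vehicle at day 4 were each the highest of their group in 22. Day 7 calls of members that the first pair of libraries changes are given with and without them, as are counts of other gene lists that they move by more than 1.5 times. In whole tumours, fewer endothelial cells and less RNA per endothelial cell cannot be told apart. Nor can a member's RNA from endothelial cells be told from its RNA in other cells of the tumour.

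Levels per kilobase of exon in vehicle tumours at day 4 spread over more than 2 orders of magnitude. The leading 3 were Vcam1 at 25.1 ± 2.55, Cd34 at 22.3 ± 7.31 and Plvap at 21.3 ± 3.33 CPM per kb (SD, n = 5), and these 3 did not differ beyond their spread. Eng followed at 13.8 ± 2.22 and Cdh5 at 10.7 ± 1.54 CPM per kb. Pecam1 was 8th of the 35 at 6.08 ± 0.94 CPM per kb. The last 3 were Clec14a at 0.174 ± 0.0679, Sele at 0.0662 ± 0.0467 and Robo1 at 0.0555 ± 0.0208 CPM per kb, and the ranges of Sele and Robo1 overlapped. Sele rested on few reads, with a median raw count of 8, 4 and 10 at day 4 of mXTX301, the unmasked control and vehicle.

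**Figure D1:**
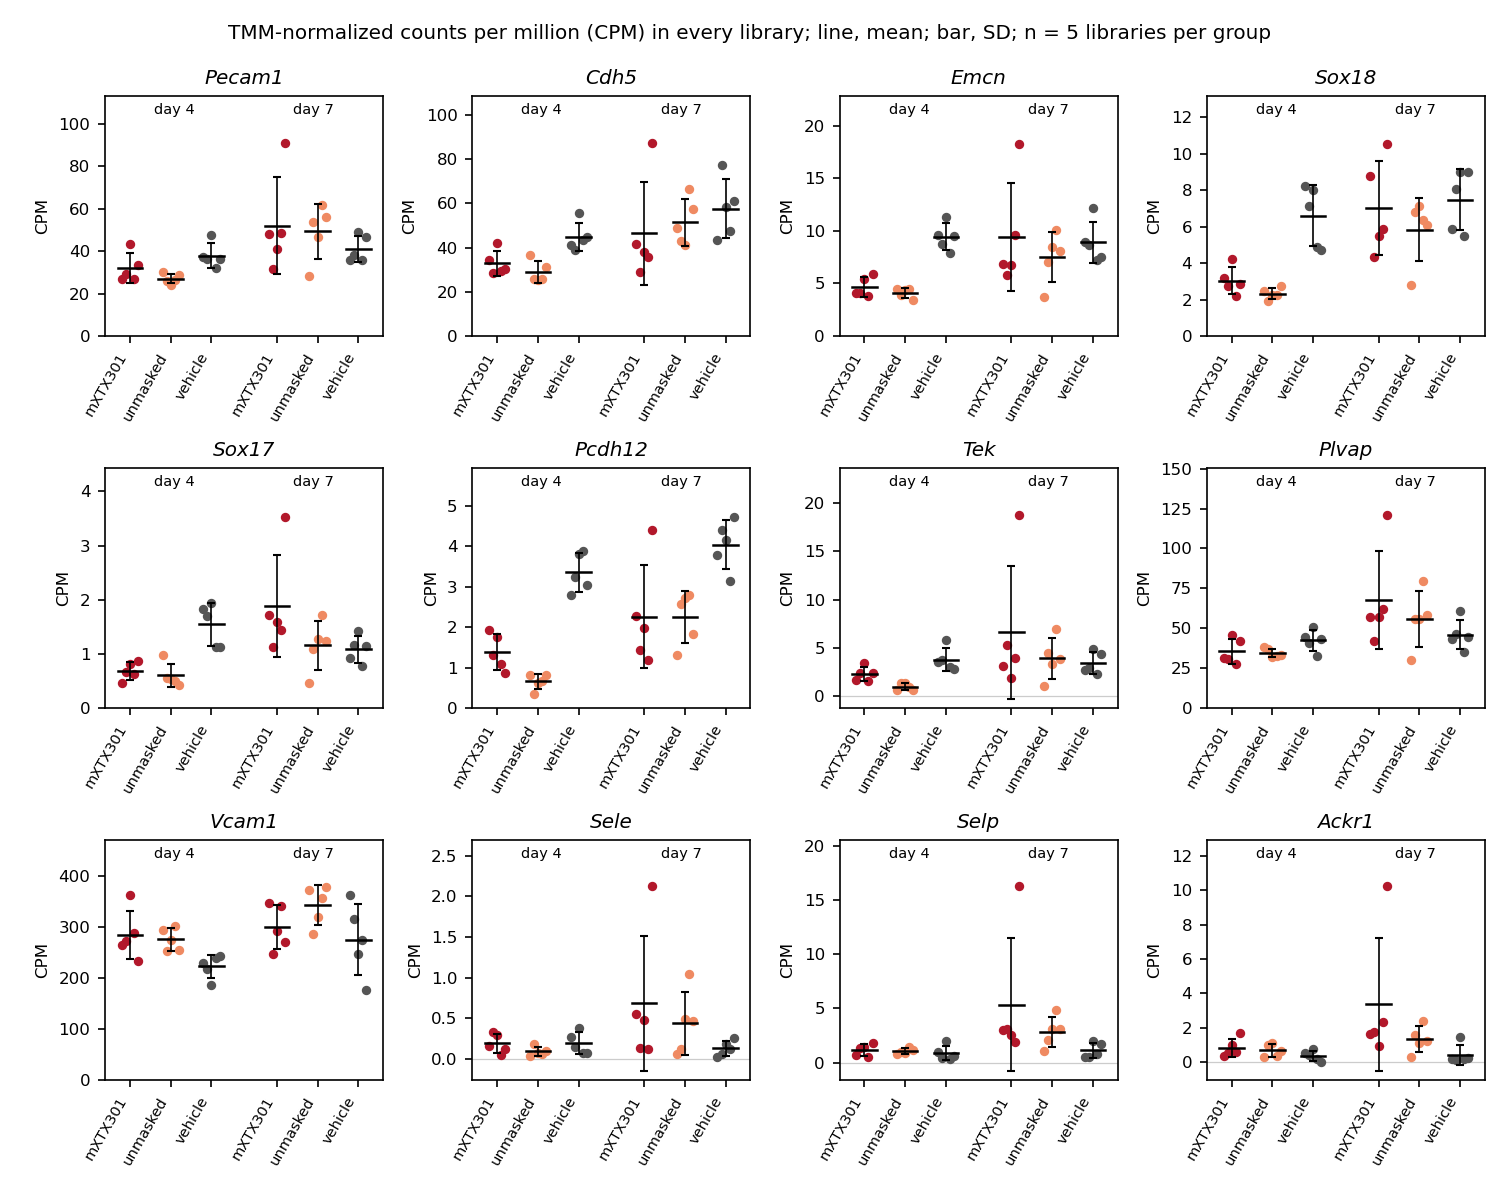
Level of 12 members in every library, in CPM, by treatment and day. Points are single tumours, and bars give the mean and SD of 5. At day 4 the mXTX301 and unmasked-control points of Emcn, Sox18, Sox17 and Pcdh12 lie below all vehicle points, and at day 7 replicate 5 of mXTX301 stands above the rest in Selp, Sele and Ackr1.

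At day 4 many endothelial identity genes were lower in both drug groups than in vehicle tumours, junction genes, transcription factors and Notch and angiopoietin pathway genes among them. With mXTX301, 11 of the 35 members fell and 0 rose (edgeR quasi-likelihood test, adjusted p under 0.05 over all genes), which is 31.4% of the members; of all tested genes 16% fell, 16.2% rose and 32.2% passed in either direction. With the unmasked control 18 of 35 fell and 0 rose (51.4% of the members); of all tested genes 10.8% fell, 11.6% rose and 22.4% passed in either direction. The median log2 fold change of the members was -0.45 with mXTX301 and -0.73 with the unmasked control, and that of all tested genes was 0.01 and -0.01. All 5 drug libraries lay below all 5 vehicle libraries in 8 members with mXTX301 (9.33% of all genes did so, and 9.29% lay wholly above) and in 19 with the unmasked control (6.54% of all genes). Both drug groups were set against the same 5 vehicle libraries. Values after ± are SDs over 5 tumours for CPM and standard errors for log2 fold changes.

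Of the 13 junction and surface glycoproteins, 5 fell with mXTX301 and 6 with the unmasked control. Pcdh12, a protocadherin of endothelial junctions, had 1.92, 1.31, 1.75, 1.08 and 0.854 CPM in the 5 mXTX301 tumours and 0.818, 0.347, 0.63, 0.663 and 0.827 CPM in the unmasked-control tumours, against 2.79, 3.25, 3.8, 3.89 and 3.03 CPM in vehicle tumours. The 3 groups did not overlap: unmasked-control values were the lowest and vehicle values the highest. Pcdh12 fell by 1.28 ± 0.29 on the log2 scale with mXTX301 (edgeR adjusted p = 0.00174) and by 2.35 ± 0.31 with the unmasked control (adjusted p = 4.75e-06), the largest fall of any member in either comparison. Emcn, a sialomucin of capillary and venous endothelium (chromosome 3, 137341067 to 137432185, plus strand of mm10), had 4.08, 4.08, 5.43, 3.8 and 5.94 CPM with mXTX301 and 4.5, 3.86, 4.34, 4.51 and 3.4 CPM with the unmasked control, against 9.59, 8.78, 11.4, 7.87 and 9.51 CPM with vehicle. Every drug-treated tumour lay below every vehicle tumour. Emcn fell by 1.01 ± 0.25 (edgeR adjusted p = 0.00323) and by 1.19 ± 0.25 (adjusted p = 0.00126) on the log2 scale.

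Rasip1, a Ras-interacting protein needed for vessel lumens, averaged 3.61 ± 0.657 CPM with mXTX301, 2.69 ± 0.324 CPM with the unmasked control and 6.44 ± 1.34 CPM with vehicle, and no drug value reached the lowest vehicle value. It fell by 0.83 ± 0.24 (edgeR adjusted p = 0.0104) and 1.26 ± 0.25 (adjusted p = 0.000588) on the log2 scale. Of its exonic bases 20.4% are shared with Izumo1 on the same strand, so its reads may in part be assigned elsewhere. Icam2, a leukocyte ligand at endothelial junctions, fell by 0.51 ± 0.17 (edgeR adjusted p = 0.0228) and 0.80 ± 0.17 (adjusted p = 0.00135); its means were 3.23 and 2.65 CPM in the drug groups and 4.6 CPM in vehicle tumours. Cdh5, which encodes VE-cadherin, had 34.4, 28.3, 41.9, 29.3 and 30.4 CPM with mXTX301 and 36.8, 25.9, 25.4, 25.7 and 31.4 CPM with the unmasked control, against 41.3, 38.9, 55.7, 43.4 and 44.8 CPM with vehicle. The unmasked-control values all lay below vehicle, and Cdh5 fell there by 0.63 ± 0.22 (edgeR adjusted p = 0.0372); with mXTX301 1 value lay inside the vehicle range and the log2 fold change was -0.45 ± 0.22 (adjusted p = 0.117).

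Pecam1, which encodes CD31, did not pass the test in either comparison. It had 27, 29, 43.5, 26.7 and 33.5 CPM with mXTX301 and 30.1, 25.8, 24.2, 26.5 and 28.7 CPM with the unmasked control, against 37.2, 36.2, 47.7, 32.1 and 36.1 CPM with vehicle. Its unmasked-control values did not overlap vehicle, at a log2 fold change of -0.48 ± 0.21 (edgeR adjusted p = 0.097), and with mXTX301 it was -0.24 ± 0.21 (adjusted p = 0.404). Plvap, the diaphragm protein of fenestrae and caveolae, averaged 35.4 ± 7.69, 34.6 ± 2.69 and 42.4 ± 6.62 CPM in mXTX301, unmasked-control and vehicle tumours, with overlapping groups and adjusted p of 0.417 and 0.366 by edgeR. Esam, a tight-junction adhesion molecule, passed in both comparisons, at log2 fold changes of -0.69 ± 0.26 and -0.99 ± 0.26. Cldn5, a tight-junction claudin, Ptprb, a phosphatase that acts on VE-cadherin, Clec14a, Ecscr and Cd34 did not pass in either. Cd34, a sialomucin shared with blood progenitor cells, averaged 166 ± 17.7, 188 ± 25.2 and 162 ± 53.3 CPM in mXTX301, unmasked-control and vehicle tumours, and its 95% intervals of the log2 fold change ran from -0.34 to 0.40 with mXTX301 and from -0.16 to 0.58 with the unmasked control.

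Transcription factors of endothelial identity were all below vehicle on average at day 4, and 2 of 5 fell with mXTX301 and 4 of 5 with the unmasked control. Sox18, a SoxF factor of vessel formation (chromosome 2, 181669836 to 181671640, minus strand), had 3.15, 2.74, 4.21, 2.18 and 2.86 CPM with mXTX301 and 2.49, 1.9, 2.23, 2.26 and 2.75 CPM with the unmasked control, against 8.22, 7.12, 8, 4.87 and 4.74 CPM with vehicle. Neither drug group overlapped vehicle, and Sox18 fell by 1.12 ± 0.25 (edgeR adjusted p = 0.00123) and by 1.5 ± 0.25 (adjusted p = 0.000106) on the log2 scale. Sox17, the SoxF factor of arterial endothelium (chromosome 1, 4490931 to 4497354, minus strand), had 0.454, 0.662, 0.819, 0.624 and 0.872 CPM with mXTX301 and 0.986, 0.55, 0.54, 0.505 and 0.422 CPM with the unmasked control, against 1.82, 1.69, 1.95, 1.12 and 1.13 CPM with vehicle. It too was separate from vehicle in both drug groups and fell by 1.16 ± 0.32 (edgeR adjusted p = 0.00654) and 1.36 ± 0.32 (adjusted p = 0.00309). Erg, the ETS factor that maintains endothelial genes, and Tal1, a factor shared with blood progenitors, passed with the unmasked control at log2 fold changes of -0.91 ± 0.27 and -1.36 ± 0.39 (edgeR adjusted p = 0.0162 and 0.0118), and with mXTX301 had -0.64 ± 0.27 and -0.39 ± 0.38 (adjusted p = 0.0668 and 0.472). Sox7, the remaining SoxF factor, had log2 fold changes of -0.41 ± 0.35 and -0.81 ± 0.35 and passed in neither. Summed erythroid genes, which bear on Tal1, were at 10.8 to 14.4 CPM with mXTX301 and 11.0 to 14.2 CPM with the unmasked control, against 20.4 to 22.6 CPM with vehicle. Most of this sum was Epor, the erythropoietin receptor, at 9.85 to 12.7 CPM and 9.55 to 12.9 CPM, against 17.7 to 20.9 CPM with vehicle. The rest of the list overlapped, at 0.994 to 1.69 CPM and 1.04 to 3.03 CPM, against 1.51 to 3.26 CPM with vehicle, and the 4 globin genes were listed at 0 in all 30 libraries. The part of these genes in the Tal1 value was not tested.

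Among the 9 receptor, guidance, Notch and nitric oxide genes, 3 fell with mXTX301 and 6 with the unmasked control. Dll4, the Notch ligand of tip and arterial cells, had 6.02, 6.24, 6.2, 7.05 and 7.91 CPM with mXTX301 and 6.03, 5.95, 3.85, 4.51 and 4.65 CPM with the unmasked control, against 10.6, 11.3, 10.6, 9.2 and 10.1 CPM with vehicle. All 10 drug values lay below the lowest vehicle value, and Dll4 fell by 0.63 ± 0.20 (edgeR adjusted p = 0.0177) and 1.05 ± 0.20 (adjusted p = 0.000524) on the log2 scale. Nos3, the endothelial nitric oxide synthase gene, averaged 4.13 ± 1.31, 3.52 ± 0.98 and 7.54 ± 1.46 CPM in mXTX301, unmasked-control and vehicle tumours. It fell by 0.87 ± 0.24 (edgeR adjusted p = 0.00631), with 1 value inside the vehicle range, and by 1.10 ± 0.24 (adjusted p = 0.00144), with none. An antisense gene covers 25.2% of the Nos3 exonic bases, and whether counting used strand is not stated. Tie1, the orphan partner of the angiopoietin receptor, fell by 0.64 ± 0.24 (edgeR adjusted p = 0.0392) and 1.02 ± 0.24 (adjusted p = 0.00316), to means of 8.76 and 6.76 CPM, against 13.7 CPM in vehicle tumours.

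Tek, the angiopoietin receptor gene, was singled out after its values were seen, because its unmasked-control values separated from those of the other 2 groups. It had 1.73, 2.43, 3.47, 1.55 and 2.44 CPM with mXTX301 and 0.651, 1.41, 1.39, 0.915 and 0.616 CPM with the unmasked control, against 3.5, 3.76, 5.8, 3 and 2.84 CPM with vehicle. Unmasked-control values lay below all others, while mXTX301 values reached into the vehicle range. Tek fell by 1.92 ± 0.48 on the log2 scale with the unmasked control (edgeR adjusted p = 0.00512), and with mXTX301 its log2 fold change was -0.70 ± 0.46 (adjusted p = 0.265). Robo4 and S1pr1, receptors that steady the endothelial barrier, passed with the unmasked control only, at log2 fold changes of -0.78 ± 0.23 and -0.49 ± 0.17; with mXTX301 they had -0.51 ± 0.23 and -0.24 ± 0.17, and the difference between the drugs did not pass for either (adjusted p = 0.617 and 0.499, edgeR). Eng, a TGF-beta co-receptor, Robo1, a Slit receptor, and Notch4, the endothelial Notch receptor, did not pass at day 4 in either drug group.

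Secreted and storage proteins gave 1 fall of 4 with mXTX301 and 2 of 4 with the unmasked control. Egfl7, a secreted endothelial matrix protein, had 17.2, 13.3, 18.9, 12.1 and 15 CPM with mXTX301 and 16.7, 16.9, 15.2, 14.8 and 15.6 CPM with the unmasked control, against 27, 21.1, 30.9, 20.3 and 32.6 CPM with vehicle. Both drug groups lay wholly below vehicle, and Egfl7 fell by 0.78 ± 0.18 (edgeR adjusted p = 0.00142) and 0.73 ± 0.18 (adjusted p = 0.00355). Mmrn2, a matrix glycoprotein of vessels, passed with the unmasked control at -0.60 ± 0.21 (edgeR adjusted p = 0.0384). Vwf, the clotting factor stored in endothelial granules, had log2 fold changes of 0.28 ± 0.32 and 0.14 ± 0.32 and did not pass in either.

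Among the 4 leukocyte capture genes 0 passed the edgeR test at day 4, and Vcam1 alone had an unadjusted p under 0.05, in both drug groups. Vcam1, the ligand of leukocyte alpha4 integrins, had 265, 273, 362, 288 and 233 CPM with mXTX301 and 295, 252, 275, 302 and 254 CPM with the unmasked control, against 229, 218, 186, 239 and 242 CPM with vehicle. Every unmasked-control value lay above every vehicle value, and it was the only member of the 35 to do so (7.3% of all genes did). Its log2 fold changes of 0.35 ± 0.14 and 0.31 ± 0.14 missed the threshold (edgeR adjusted p = 0.0519 and 0.11), while DESeq2 called it with mXTX301 (adjusted p = 0.0405) and not with the unmasked control (adjusted p = 0.0948). Sele, E-selectin, averaged 0.192 ± 0.117, 0.0939 ± 0.0598 and 0.193 ± 0.136 CPM in mXTX301, unmasked-control and vehicle tumours, and Selp, P-selectin, 1.17 ± 0.546, 1.06 ± 0.275 and 0.866 ± 0.666 CPM. The groups overlapped for both selectins, and edgeR adjusted p were 0.993 and 0.387 for Sele and 0.594 and 0.739 for Selp. Ackr1, a chemokine-binding receptor of venules, had log2 fold changes of 1.14 ± 0.74 and 0.85 ± 0.74 and also did not pass.

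Leaving out single libraries of the compared groups kept between 8 and 13 members past the threshold with mXTX301 and between 14 and 18 with the unmasked control. Esam, Tie1 and Icam2 lost their calls with mXTX301 without at least 1 library (edgeR adjusted p up to 0.112), and the other 8 did not. Cdh5, Mmrn2, Robo4 and S1pr1 lost theirs with the unmasked control (adjusted p up to 0.114), all 4 of them without replicate 3 of vehicle, the highest of its group in 22 members, and the other 14 did not. Without the skin-rich libraries 9 members fell with mXTX301, with Tie1 and Dll4 no longer called (edgeR adjusted p = 0.05 and 0.0506), while 13 fell and Vcam1 rose with the unmasked control (adjusted p = 0.048 for Vcam1).

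**Figure D2:**
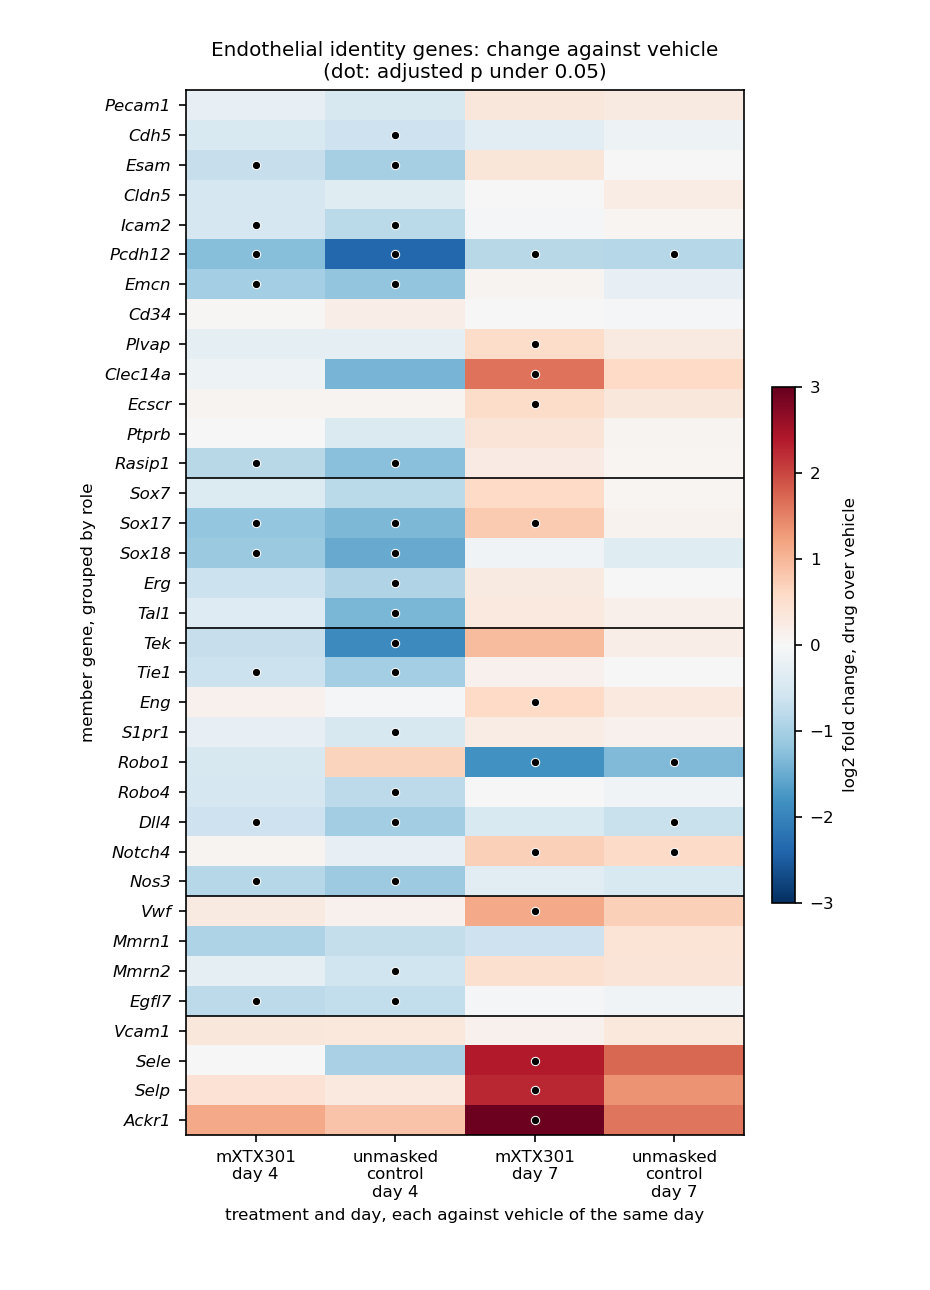
Log2 fold change of the 35 members against vehicle, with members by role down the page and drug and day across. Blue is lower and red is higher than vehicle, and a dot marks an adjusted p under 0.05. At day 4 most cells are blue, with 11 and 18 members called, Sele, Selp and Ackr1 at day 7 are the reddest, with Vcam1 paler, and Pcdh12 is blue in all 4 comparisons.

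At day 7 of mXTX301 the picture was mixed: 10 of 35 members rose (28.6%, against 25.7% of all tested genes) and 2 fell (5.71%, against 22.7%), while 48.4% of all genes passed in either direction. The share that rose was close to that of all genes. The median log2 fold change was 0.26 (all tested genes 0.02), and 24 of the 35 lay above 0 (7950 of all 15482 tested genes). Notch4 was the only member whose groups did not overlap, with mXTX301 above vehicle (16.5% of all genes did so). Without replicate 5 of mXTX301, 4 members rose, 5 fell and the median was -0.03. Without replicate 1, 4 or 5 of vehicle 6 rose in each case. Ackr1, Eng, Notch4, Selp and Robo1 passed whichever single library was left out.

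The 3 highest fold changes of the 35 were those of Sele, Selp and Ackr1, while Vcam1, the other capture gene, did not pass. Selp had 2.98, 3.13, 2.56, 1.88 and 16.2 CPM with mXTX301, against 0.548, 0.506, 2.02, 0.812 and 1.74 CPM with vehicle, and Sele had 0.56, 0.138, 0.48, 0.128 and 2.13 CPM, against 0.0238, 0.0684, 0.187, 0.13 and 0.255 CPM. In both, replicate 5 was far above the other mXTX301 tumours, and the lowest Selp value and the lowest 2 Sele values of mXTX301 lay inside the vehicle range. Selp rose by 2.25 ± 0.57 (edgeR adjusted p = 0.00216) and Sele by 2.37 ± 0.77 (adjusted p = 0.0127) on the log2 scale. Without replicate 5 Selp rose by 1.22 ± 0.48 (edgeR adjusted p = 0.0423) and Sele had 1.29 ± 0.72 and did not pass (adjusted p = 0.148). Ackr1 had 1.63, 1.75, 0.93, 2.32 and 10.2 CPM with mXTX301, against 0.167, 0.151, 1.48, 0.162 and 0.225 CPM with vehicle, where replicate 3 alone was above 0.3 CPM. It rose by 2.95 ± 0.77 (edgeR adjusted p = 0.0026), and by 1.91 ± 0.70 without replicate 5 (adjusted p = 0.0296). Of the exonic bases of Ackr1 25.7% are shared with Cadm3 on the same strand. In vehicle tumours at day 7 Sele had raw counts of 2 to 17 (median 8) and Ackr1 of 10 to 95 (median 14). Their fold changes therefore rest on few vehicle reads. Vcam1 averaged 299.8 ± 43.5 CPM with mXTX301 and 275 ± 70.2 CPM with vehicle, with overlapping groups (log2 fold change 0.12 ± 0.14, edgeR adjusted p = 0.476).

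Among receptors, Notch4 (chromosome 17, 34564268 to 34588503, plus strand) had 39.2, 32.1, 47.6, 39.8 and 32.5 CPM with mXTX301, against 22.7, 20.04, 30.8, 20.6 and 22.6 CPM with vehicle. Every mXTX301 value lay above every vehicle value, and Notch4 rose by 0.71 ± 0.15 on the log2 scale (edgeR adjusted p = 0.000448), or 0.75 without replicate 5. Its vehicle mean was lower at day 7 (23.3 CPM) than at day 4 (30.2 CPM), a change that did not pass. Eng had 97.2, 74.5, 86.1, 88.7 and 136 CPM with mXTX301, against 58.3, 52.8, 76.2, 64.8 and 69 CPM with vehicle; only the lowest mXTX301 value lay inside the vehicle range. It rose by 0.59 ± 0.13 (edgeR adjusted p = 0.000733), or 0.42 without replicate 5. Robo1 had 0.865, 0.353, 0.449, 0.576 and 0.561 CPM with mXTX301, against 2.27, 3.19, 1.46, 2.14 and 0.825 CPM with vehicle, and fell by 1.82 ± 0.43 (edgeR adjusted p = 0.000997), with the highest mXTX301 value just above the lowest vehicle value. Dll4 had 6.66, 5.55, 7.59, 8.91 and 15.9 CPM with mXTX301, against 12.9, 12.1, 13.7, 9.71 and 12.9 CPM with vehicle. Its 4 lower mXTX301 values lay below all vehicle values and replicate 5 above them, and the log2 fold change was -0.46 ± 0.20 (edgeR adjusted p = 0.0578). Without replicate 5 Dll4 passed, with a fall of 0.79 ± 0.17 (edgeR adjusted p = 0.000496), as did Nos3, with a fall of 0.58 ± 0.23 (adjusted p = 0.0403).

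Junction genes did not move as 1 group at day 7 of mXTX301. Pcdh12 had 2.27, 1.44, 1.98, 1.19 and 4.4 CPM with mXTX301, against 3.78, 4.39, 4.15, 3.13 and 4.72 CPM with vehicle, so that 4 mXTX301 values lay below all vehicle values. It fell by 0.84 ± 0.29 (edgeR adjusted p = 0.0184), or 1.24 without replicate 5; without replicate 4 or without the skin-rich libraries it did not pass (adjusted p = 0.0536 and 0.128). Plvap had 56.8, 41.8, 56.7, 61.9 and 121 CPM with mXTX301, against 43.1, 46.5, 60.6, 35.2 and 44.8 CPM with vehicle, with 3 mXTX301 values inside the vehicle range. It rose by 0.55 ± 0.23 (edgeR adjusted p = 0.0446), but without replicate 5 its value was 0.23 ± 0.19 (adjusted p = 0.365). Clec14a, a lectin-like glycoprotein of tumour vessels, rose by 1.63 ± 0.62 (edgeR adjusted p = 0.0303) with 1 value of 9.93 CPM among 5, and had 0.58 ± 0.55 without that library (adjusted p = 0.41). Ecscr rose by 0.56 ± 0.23 (edgeR adjusted p = 0.0444) and lost its call without replicate 5, at 0.45 ± 0.24 (adjusted p = 0.132). Pecam1 and Emcn averaged 52 ± 22.8 and 9.44 ± 5.14 CPM with mXTX301, against 41 ± 6.23 and 8.9 ± 1.96 CPM with vehicle, and neither passed (edgeR adjusted p = 0.181 and 0.802). Cdh5 had 41.4, 29.1, 38.1, 35.9 and 87.2 CPM, against 43.3, 77.3, 58.2, 47.4 and 61.1 CPM with vehicle. Its log2 fold change was -0.31 ± 0.22 (edgeR adjusted p = 0.242), and without replicate 5 it fell by 0.68 ± 0.17 (adjusted p = 0.00202).

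Sox17 and Vwf completed the calls at day 7 of mXTX301. Sox17 had 1.71, 1.14, 1.58, 1.45 and 3.54 CPM with mXTX301, against 0.917, 1.16, 1.42, 0.779 and 1.14 CPM with vehicle, and rose by 0.80 ± 0.31 (edgeR adjusted p = 0.0369). Vwf had 17.8, 16.5, 11.4, 13.6 and 52.8 CPM, against 10.9, 6.95, 11.2, 9.48 and 12.4 CPM with vehicle, and rose by 1.14 ± 0.32 (edgeR adjusted p = 0.00455). Each had 1 mXTX301 value inside the vehicle range, and without replicate 5 they had log2 fold changes of 0.43 and 0.53 and did not pass (adjusted p = 0.252 and 0.0705, edgeR). Sox18 averaged 7 ± 2.56 CPM with mXTX301 and 7.47 ± 1.68 CPM with vehicle, at a log2 fold change of -0.09 ± 0.24 (edgeR adjusted p = 0.775).

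At day 7 of the unmasked control 1 of 35 members rose (2.86%, against 23.2% of all tested genes) and 3 fell (8.57%, against 21.8%), while 45% of all genes passed in either direction. The median log2 fold change was 0.10 (all tested genes 0.01), and 25 of the 35 lay above 0 (7926 of all 15482 tested genes). Both drug groups again shared the 5 vehicle libraries of their day. Notch4 had 26.5, 39.9, 39.4, 37.5 and 31.7 CPM with the unmasked control, against the vehicle values above, overlapping in 1 value, and rose by 0.58 ± 0.15 (edgeR adjusted p = 0.00301). Pcdh12 had 1.32, 2.57, 2.71, 2.79 and 1.82 CPM, all below vehicle, the only member so placed (12.8% of all genes were), and fell by 0.85 ± 0.29 (edgeR adjusted p = 0.0186; 0.103 without the skin-rich libraries). Dll4 had 5.34, 6.3, 8.56, 10.0 and 8.61 CPM and Robo1 0.534, 0.852, 0.705, 0.589 and 1.25 CPM with the unmasked control. Dll4 overlapped vehicle in 1 value and fell by 0.66 ± 0.20 (edgeR adjusted p = 0.00902), and Robo1 fell by 1.33 ± 0.42 (adjusted p = 0.0111).

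The other panel genes did not pass at day 7 of the unmasked control. Selp had 1.03, 2.1, 3.12, 4.83 and 3.11 CPM and Sele 0.0668, 0.122, 0.495, 1.04 and 0.466 CPM, with replicate 4 the highest in both. Replicate 1 lay inside the vehicle range in both, and replicate 2 also for Sele. Their log2 fold changes were 1.34 ± 0.56 and 1.72 ± 0.76 (edgeR adjusted p = 0.0534 and 0.0655), and Ackr1 had 1.61 ± 0.74 (adjusted p = 0.0773). Without replicate 1 of the unmasked control all 3 passed, at 1.53, 1.99 and 1.84 (edgeR adjusted p = 0.0291, 0.0325 and 0.045), as did Vwf at 0.86 and Mmrn2 at 0.51. That setting gave 6 rises, 3 falls and a median of 0.27. Without replicate 3 of vehicle 4 rose and 3 fell, and Ackr1 then had 2.88 (edgeR adjusted p = 0.00282). Vcam1 averaged 343 ± 39.1 CPM with the unmasked control and 275 ± 70.2 CPM with vehicle (log2 fold change 0.32 ± 0.14, edgeR adjusted p = 0.0625). Pecam1 had 0.27 ± 0.21, Cdh5 -0.16 ± 0.21, Emcn -0.25 ± 0.25, Sox18 -0.36 ± 0.24 and Plvap 0.28 ± 0.23 on the log2 scale, with edgeR adjusted p of 0.239 or more.

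Set against each other, mXTX301 and the unmasked control differed in 0 of 35 members at day 4 and in 0 at day 7 (edgeR; 0% of all tested genes passed on either day). DESeq2 also called 0 members on either day. At an unadjusted p under 0.05, 6 members differed at day 4 and 2 at day 7. At day 4, 30 of 35 members were higher with mXTX301 on average, and 8129 of all 15482 tested genes were. Pcdh12 and Tek had mXTX301 values wholly above the unmasked-control values (2.4% of all genes did), at log2 differences of 1.08 ± 0.30 and 1.22 ± 0.47 (95% intervals 0.46 to 1.69 and 0.24 to 2.19; edgeR adjusted p = 0.251 and 0.302). For Pecam1 the 95% interval of the difference ran from -0.19 to 0.67 at day 4 and from -0.35 to 0.51 at day 7. For Selp it ran from -1.0 to 1.29 at day 4 and from -0.21 to 2.04 at day 7.

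The change of each drug effect between days was tested as a difference of differences. For the unmasked control 6 members shifted upward by day 7 (17.1%, against 2.95% of all tested genes) and 1 downward (2.86%, against 2.2%), while 5.15% of all genes passed in either direction. The upward 6 were Pcdh12 at 1.51 ± 0.41, Rasip1 at 1.32 ± 0.34, Sox18 at 1.15 ± 0.35, Mmrn2 at 0.98 ± 0.29, Icam2 at 0.85 ± 0.24 and Notch4 at 0.84 ± 0.22 on the log2 scale, with edgeR adjusted p of 0.0308 to 0.0498. Robo1 shifted downward by 2.00 ± 0.59 (edgeR adjusted p = 0.0463): its unmasked-control mean was 0.786 CPM at day 7 and 1.46 CPM at day 4, while its vehicle mean was 1.98 and 0.916 CPM. For Notch4 the unmasked-control mean was 34.98 CPM at day 7 and 25.3 CPM at day 4, while its vehicle mean was 23.3 and 30.2 CPM. This count of 7 depended on single libraries. It was 0 without vehicle replicate 1, 2 or 3 at day 4, vehicle replicate 4 at day 7, unmasked-control replicate 3 at day 4, or unmasked-control replicate 2 or 4 at day 7, and 0 without the skin-rich libraries. It was 1 or 2 without vehicle replicate 1 or 2 at day 7 or without unmasked-control replicate 4 at day 4 or 5 at day 7, and 4 without vehicle replicate 4 at day 4 or unmasked-control replicate 1 or 5 at day 4 or 3 at day 7. It was 11 without vehicle replicate 5 of either day and 16 without unmasked-control replicate 1 at day 7. For mXTX301 1 member shifted, Sox17 at 1.96 ± 0.45 (edgeR adjusted p = 0.0191; 1.95% of all tested genes shifted upward, 3.04% downward and 4.99% in either direction). That count was 2 to 4 without vehicle replicate 4 or 5 at day 4, vehicle replicate 3 or 5 at day 7, mXTX301 replicate 3 at day 4, or mXTX301 replicate 1 or 2 at day 7. The difference lay above 0 in 32 members for mXTX301 and 33 for the unmasked control. Of all 15482 tested genes 8593 and 8083 did so. Members of 1 tumour are not independent, so these are not 35 separate results. In vehicle tumours 0 of 35 members changed between the days by edgeR, and 0 by DESeq2. Of all tested genes 0.0388% did by edgeR, 0.0194% in each direction. At an unadjusted p under 0.05 by edgeR there were 3 members, Robo1 and Vcam1 with higher means at day 7 and Notch4 with a lower one.

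**Figure D3:**
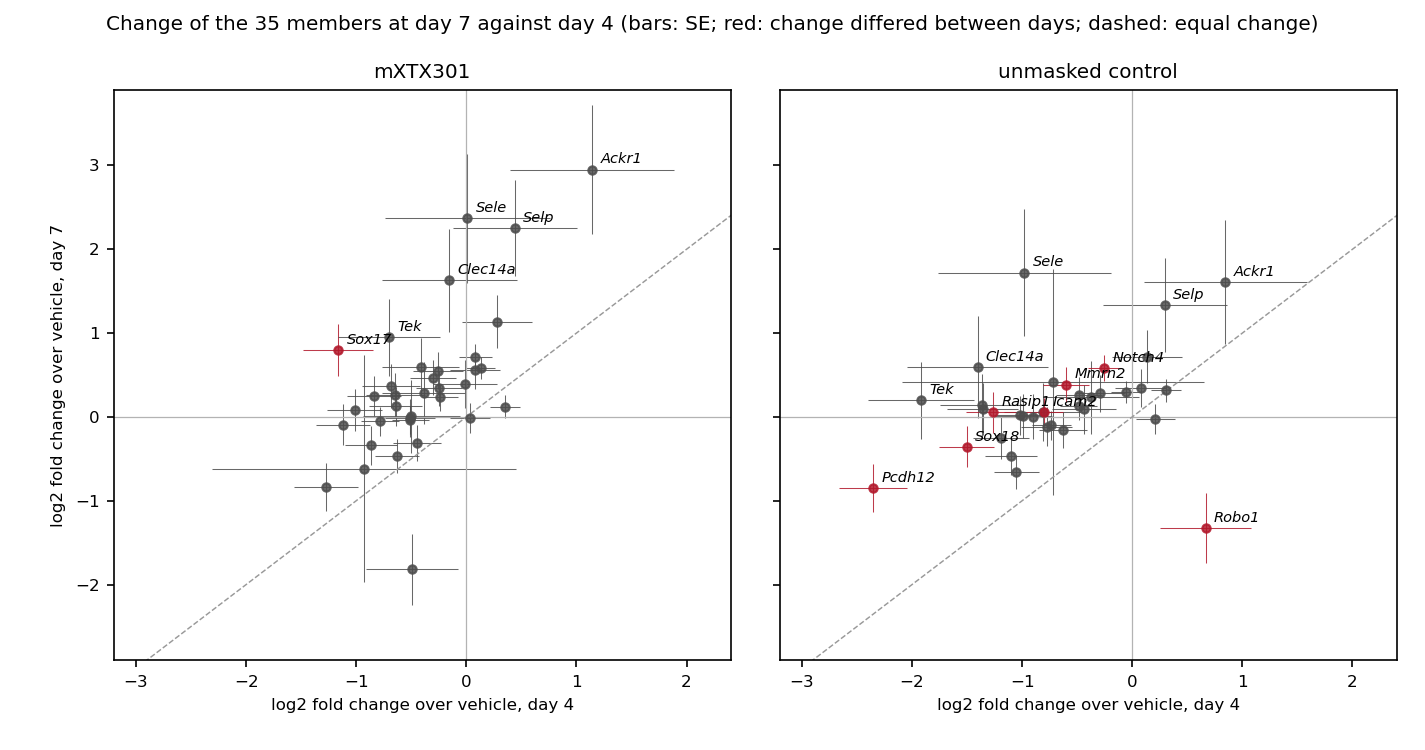
Log2 fold change against vehicle at day 7 (vertical axis) and day 4 (horizontal axis) for the 35 members, with mXTX301 in the left panel and the unmasked control in the right. The diagonal marks equal values. Of the points, which are not independent, 32 lie above it for mXTX301 and 33 for the unmasked control. The selectins and Ackr1 sit highest in both panels, with Robo1 below the diagonal.

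To describe each member relative to Pecam1, its CPM was divided by that of Pecam1 in the same tumour, without a test. Whether Pecam1 measured endothelial cells alone in these tumours was not tested. With group means removed, its r was 0.967 with the mean of the other members. It was 0.625 with the macrophage list, 0.574 with the T-cell list and 0.604 with the platelet list. With the pericyte, adipocyte and fibroblast lists it was 0.879, 0.722 and 0.678. The macrophage-list r of the other members ran from -0.278 (Mmrn1) to 0.707 (Clec14a), so that of Pecam1 did not stand apart. The part of such cells in the ratios was not tested. At day 4 the ratio of Pcdh12 was 0.0445 ± 0.0166 with mXTX301 and 0.0241 ± 0.00611 with the unmasked control, against 0.0899 ± 0.0183 with vehicle. At day 7 it was 0.0429 ± 0.0102 and 0.0461 ± 0.0092, against 0.0991 ± 0.0126 with vehicle. On neither day did a drug-treated tumour reach the lowest vehicle ratio, replicate 5 of mXTX301 at day 7 included. The Emcn ratio at day 4 was 0.147 ± 0.0193 with mXTX301 and 0.153 ± 0.0234 with the unmasked control, against 0.249 ± 0.0107 with vehicle, again with no overlap. Mmrn2 kept close to Pecam1 in every group, with mean ratios between 0.254 and 0.278. Vcam1 went the other way at day 4, at 9.06 ± 1.46 and 10.2 ± 1.1 in the drug groups and 6.05 ± 1.32 with vehicle. The Selp ratio at day 7 was 0.0882 ± 0.055 with mXTX301 and 0.0553 ± 0.0178 with the unmasked control, against 0.026 ± 0.0128 with vehicle.

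Members were then compared tumour by tumour. With group means removed, each member was correlated with the mean of the other 34 over the 30 libraries. Members of 1 library share its depth and its tissue content. The median of the 35 coefficients was 0.751; 28 were above 0.5 and 7 above 0.9. Pecam1 (0.967), Mmrn2 (0.964), Plvap (0.949), Robo4 and Rasip1 (0.946 each), Esam (0.932) and Tie1 (0.922) followed the rest most closely. Cd34 (0.0674), Robo1 (0.0749), Mmrn1 (0.0598) and Vcam1 (-0.132) did not follow it. Notch4 at 0.253, Ecscr at 0.315 and Cldn5 at 0.338 were low as well. Which cells of the tumour held the RNA of these members was not tested. Outside the list, the 5 genes most like the mean member profile over the 30 libraries were Spns2 (r = 0.939), Ushbp1 (0.937), Tspan7 (0.935), Id3 (0.93) and Myct1 (0.927).

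**Figure D4:**
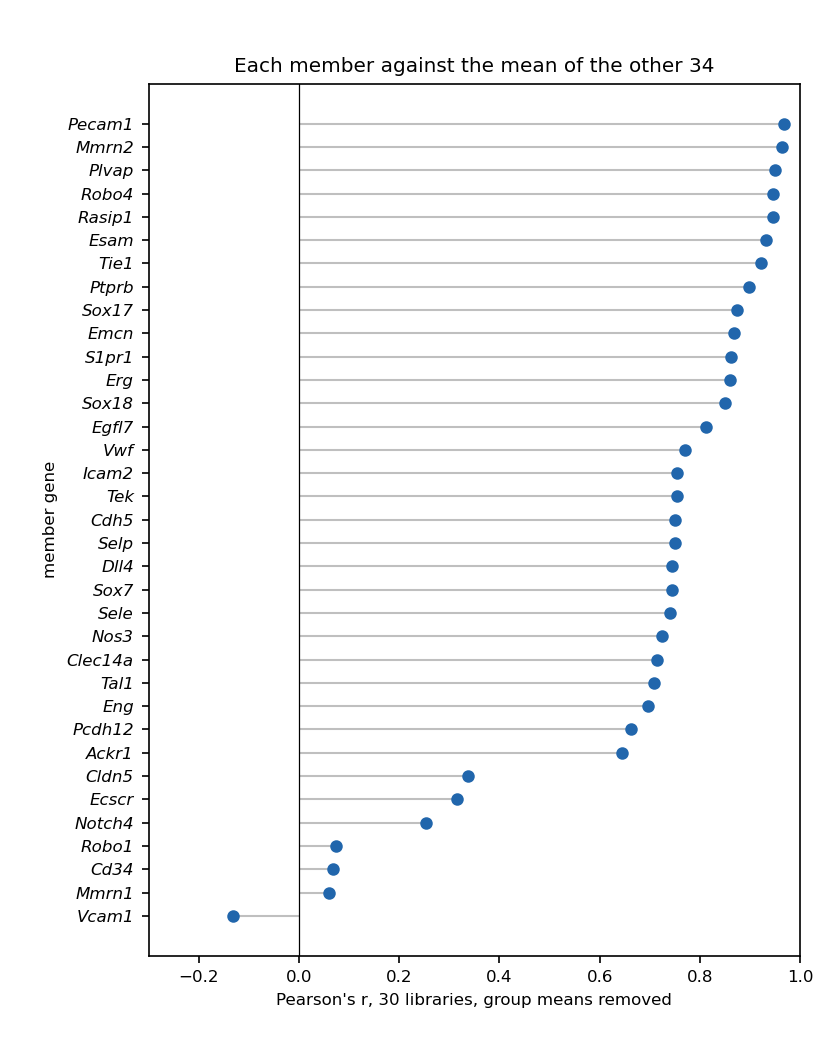
Pearson's r between each member and the mean of the other 34 over 30 libraries, with group means removed. Most members lie above 0.7, and Vcam1, Mmrn1, Cd34 and Robo1 lie near 0.

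Mmrn1, a multimeric glycoprotein of platelets and of endothelium, lymphatic endothelium included, was near 0 in some libraries and plentiful in others. Its raw count was 0 or 1 in 7 of 30 libraries and 13 to 750 in the other 23. These 7 were replicates 2, 4 and 5 of mXTX301 on both days and replicate 2 of the unmasked control at day 4, that is 6 of 10 mXTX301, 1 of 10 unmasked-control and 0 of 10 vehicle libraries. Prox1, the transcription factor that specifies lymphatic endothelium, had 0 or 1 reads in all 7 and 1 to 101 in the other 23. Flt4, a lymphatic growth factor receptor, had 124 to 221 reads in the 7 and 137 to 1792 in the others. The rest of the lymphatic list overlapped more widely: Lyve1, which some macrophages also express, had 406 to 1910 reads in the 7 and 248 to 1998 in the others, Pdpn 1134 to 4022 and 582 to 4010, and Reln 3 to 86 and 10 to 342. Ccl21a was listed at 0 in all 30. Mmrn1 had CPM of 8.39, 0, 2.5, 0 and 0.0187 with mXTX301 at day 7, against 0.965, 1.71, 0.793, 3.36 and 9.99 with vehicle, and did not pass in any drug comparison (edgeR adjusted p between 0.651 and 0.829). Without the skin-rich libraries it passed at day 7 of mXTX301 (edgeR adjusted p = 0.0222), where the 3 libraries left were those with 0, 0 and 1 reads. Within groups its r was 0.732 with the mean standardized log2 CPM of the skeletal muscle genes. It was 0.6 with that of the skin genes and 0.647 with that of the lymphatic genes. The part of these in its levels was not tested.

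**Figure D5:**
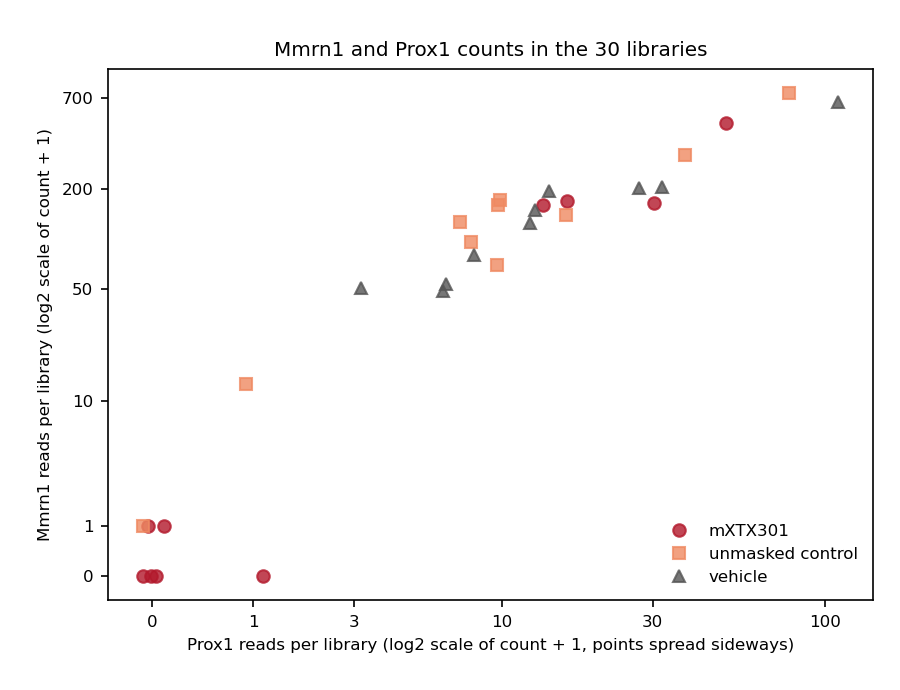
Raw Mmrn1 reads (vertical axis) against raw Prox1 reads (horizontal axis) in the 30 libraries, on log2 scales of count + 1, with small sideways offsets. The 7 libraries with at most 1 Mmrn1 read, 6 of them mXTX301, sit at the lower left with at most 1 Prox1 read.

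Other endothelial genes were counted in the same way. At day 4 of mXTX301 16.2% of all tested genes rose and 16% fell, and with the unmasked control 11.6% and 10.8%. Of 29 tested genes outside the members, 9 fell and 1 rose at day 4 of mXTX301, and 16 fell and 0 rose at day 4 of the unmasked control. Ramp2, a co-receptor for adrenomedullin, fell by 0.83 ± 0.16 (edgeR adjusted p = 0.000363), Unc5b, a netrin receptor, by 0.65 ± 0.14 (adjusted p = 0.00123) and Apold1 by 1.15 ± 0.29 (adjusted p = 0.004) with mXTX301. With the unmasked control Apold1 fell by 1.77 ± 0.30 (edgeR adjusted p = 0.000127), Heyl, a Notch target, by 1.97 ± 0.36 (adjusted p = 0.000274) and Kdr, the main VEGF receptor, by 1.42 ± 0.26 (adjusted p = 0.000276). At day 7, 7 rose and 3 fell with mXTX301, where 25.7% of all tested genes rose and 22.7% fell. With the unmasked control 5 rose and 3 fell, where 23.2% of all tested genes rose and 21.8% fell. The shares of both days also stand beside the list counts that follow. For all lists other than the members, leaving out 1 library at day 7 was chosen after the data were seen. Here 2 rose and 6 fell with mXTX301 without its replicate 5, and 6 rose and 4 fell with the unmasked control without its replicate 1. Fli1, an ETS factor that blood cells also express, rose by 1.15 ± 0.25 and 1.16 ± 0.25, while Ramp2 fell by 0.67 ± 0.16 and 0.68 ± 0.16 (edgeR adjusted p between 0.000526 and 0.00125). Unc5b fell by 0.73 ± 0.14 with mXTX301 and Apold1 by 1.15 ± 0.29 with the unmasked control.

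In the VEGF and apelin list of 10 genes, 2 fell at day 4 of mXTX301 and 5 at day 4 of the unmasked control, with 0 rises. Aplnr, the apelin receptor of sprouting endothelium, fell by 1.74 ± 0.48 (edgeR adjusted p = 0.00702) and by 3.76 ± 0.53 (adjusted p = 1.72e-05) on the log2 scale. Nrp1, a VEGF co-receptor, fell by 0.39 ± 0.13 with the unmasked control (edgeR adjusted p = 0.0351). At day 7 Vegfa, the growth factor itself, rose by 0.57 ± 0.12 (edgeR adjusted p = 0.000301) and 0.60 ± 0.12 (adjusted p = 0.000188), and Angpt2, the ligand that opposes Tek activation, by 0.51 ± 0.16 (adjusted p = 0.0121) and 0.70 ± 0.16 (adjusted p = 0.00111). Apln fell by 0.88 ± 0.20 at day 7 of the unmasked control (edgeR adjusted p = 0.000871). Of 12 pericyte and smooth muscle genes, the cells that wrap vessels, 1 fell at day 4 of mXTX301 and 2 at day 4 of the unmasked control; Kcnj8, a pericyte potassium channel, fell in both, by 0.66 ± 0.25 and 1.09 ± 0.26 (edgeR adjusted p = 0.0466 and 0.00298). At day 7 of mXTX301 3 of these 12 rose, a share close to the 25.7% of all tested genes. They were Myh11 by 1.32 ± 0.44, Notch3 by 1.11 ± 0.38 and Rgs5 by 0.92 ± 0.33 (edgeR adjusted p = 0.0143, 0.0167 and 0.0247). Replicate 5 held 101 CPM of Rgs5, 26.2 CPM of Notch3 and 14.95 CPM of Myh11, while the other mXTX301 tumours held at most 34.96, 9.27 and 4.14 CPM. Without it 0 of the 12 passed, and Myh11, Notch3 and Rgs5 had log2 fold changes of 0.66 ± 0.39, 0.58 ± 0.34 and 0.33 ± 0.27 (edgeR adjusted p = 0.172, 0.164 and 0.325). Des, the intermediate filament of muscle cells, skeletal muscle included, rose by 1.98 ± 0.71 at day 7 of the unmasked control (edgeR adjusted p = 0.0264), the only 1 of the 12. Without replicate 1 of the unmasked control Acta2, smooth muscle actin, passed as well, at 1.11 ± 0.40 (edgeR adjusted p = 0.0243). Summed skeletal muscle genes at day 7 were at 149.7 to 703 CPM with the unmasked control, against 32.6 to 201 CPM with vehicle. All 10 muscle genes had log2 fold changes above 0 there, with a median of 1.86 and 0 called, and their part in the Des value was not tested.

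Most listed integrin and selectin-ligand genes of leukocytes rose at both days. Of these 8 genes, 6 rose at day 4 in each drug group. Itgal, the alpha chain of the integrin that binds ICAMs, which are not among the 4 capture genes, rose by 2.16 ± 0.31 and 1.82 ± 0.31 (edgeR adjusted p = 2.28e-05 and 0.000176). Itgb7 rose by 1.75 ± 0.25 and 1.60 ± 0.25 (edgeR adjusted p = 2e-05 and 6.33e-05). At day 7, 6 rose and 1 fell with mXTX301 and 5 rose and 1 fell with the unmasked control. The gene that fell was Itgb1, an integrin beta chain. It had 752 to 845 CPM with mXTX301 and 823 to 897 CPM with the unmasked control, against 894 to 997 CPM with vehicle. Itga4, the alpha4 chain, had 14.5 to 28 CPM with mXTX301 at day 7, against 2.46 to 7.49 CPM with vehicle. Cytokines that induce endothelial adhesion molecules rose in 5 of 6 tested genes at day 4 and in 6 of 6 at day 7 in both drug groups. Ifng rose by 4.36 ± 0.56 and 4.45 ± 0.56 at day 4, and by 5.04 ± 0.56 and 4.55 ± 0.55 at day 7 (edgeR adjusted p of 3.78e-06 or less). Tnf rose by 1.11 ± 0.26 at day 4 of mXTX301 (edgeR adjusted p = 0.00222) and Il1a by 2.32 ± 0.49 at day 4 of the unmasked control (adjusted p = 0.00134). Of 7 listed genes of high endothelial venules 4 were tested, while Glycam1, Chst4 and Ccl21a were at or near 0 and were not. Of these 4, mXTX301 gave 1 rise and 1 fall at day 7, and the unmasked control 2 rises and 1 fall. Ltbr, the lymphotoxin-beta receptor, rose by 0.21 ± 0.05 and 0.16 ± 0.05 (edgeR adjusted p = 0.000681 and 0.00765), and Madcam1, a mucosal vascular adhesion molecule, fell by 1.26 ± 0.43 and 1.16 ± 0.43 at day 7 (adjusted p = 0.0165 and 0.0283). Of 5 lymphatic genes 1 rose in each drug comparison, Pdpn, which fibroblasts and macrophages also express; its log2 fold changes were 0.80 ± 0.26 and 0.79 ± 0.26 at day 4, and 2.11 ± 0.27 and 1.96 ± 0.27 at day 7.

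Markers of other cells moved with the drug groups too. Of all tested genes 16.2% and 11.6% rose at day 4 of mXTX301 and the unmasked control, and 25.7% and 23.2% at day 7. T-cell genes rose in 9 and 8 of 10 at day 4 of mXTX301 and the unmasked control and in 10 of 10 at day 7 in both, and their summed level at day 7 was 59.9 to 151 CPM and 60.2 to 187 CPM, against 6.86 to 13.5 CPM with vehicle. Macrophage genes rose in 6 and 1 of 11 at day 4 and in 11 and 10 of 11 at day 7. Their sum at day 4 was 783 to 2120 CPM with mXTX301 and 949 to 1520 CPM with the unmasked control, against 611 to 898 CPM with vehicle. Fibroblast genes rose in 7 of 10 at day 7 of mXTX301, where their sum was 3390 to 8980 CPM, against 1680 to 4020 CPM with vehicle, and in 2 of 10 with the unmasked control. Without replicate 5 of mXTX301 it was 4 of 10, and without replicate 1 of the unmasked control 5 of 10. Of 6 tested platelet genes, which bear on Selp, Vwf and Mmrn1 because platelets carry all 3 proteins, the median log2 fold change at day 4 was -0.24 with mXTX301 and 0.03 with the unmasked control, while 3 rose at day 7 of mXTX301 and 4 at day 7 of the unmasked control. Itga2b, the platelet fibrinogen receptor chain, rose by 0.98 ± 0.26 and 0.97 ± 0.26 (edgeR adjusted p = 0.00332 and 0.00402). Of 7 tested mast-cell genes 1 rose at day 4 and 5 and 6 at day 7. At day 4, where members fell, adipocyte genes had median log2 fold changes of -0.75 and -0.78 with 6 of 8 below 0 in each drug group, and skeletal muscle genes -0.61 and -0.97 with 8 and 9 of 10 below 0; 0 genes of either list passed. At day 7 of mXTX301 adipocyte genes rose in 2 of 8, where replicate 5 had the top sum, and in 0 of 8 without it, while skeletal muscle genes had a median of 1.07 and 0 called. Skin genes had median log2 fold changes of 1.33 and 2.19 at day 4 and 0.11 and 0.40 at day 7, with mXTX301 first in each pair. How far these cells account for the members' values was not tested.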

How the data were processed

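RNA was measured in 30 whole MC38 tumours from 6 groups of 5 mice, with groups taken from the treatment and time labels. Per the labels' protocols, RNA was extracted with a NucleoSpin kit and libraries were made with a TruSeq RNA kit; strandedness is not stated. Per the submitters' processing notes, the authors used edgeR 3.34.0 in R 4.1.0, HTSeq 0.11.1, STAR 2.7.10a, FastQC 0.11.9 and cutadapt, with build mm10; their roles and settings are not given in the sources used here. The authors deposited raw read counts per gene (24557 entries) and log2 CPM values. The deposited log2 values of 14877 genes, all 35 members included, were recomputed from the counts with a prior count of 2 to within 5e-05, and the tests used the counts.

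In R 4.3.3 with edgeR 4.0.16 and limma 3.58.1, counts were filtered with filterByExpr (15482 genes, after 5 entries with a repeated symbol were dropped), scaled by TMM and fitted with 1 mean per group over all 30 libraries (24 residual degrees of freedom, biological coefficient of variation 27.3%). Robust quasi-likelihood F tests gave 9 comparisons, each with Benjamini-Hochberg adjustment over all 15482 genes, and an adjusted p under 0.05 was called. Log2 fold changes have standard errors with 95% intervals. The fit was tested on simulated data. Depth was 48.3 M to 85.2 M counts, so the spread between 5 mice set the precision for all but the lowest members; p-values measure the spread between mice. Members and lists were chosen with earlier results of these data known, so their counts and medians are descriptions.

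Named members were 8 panel genes in every drug comparison (Pecam1, Cdh5, Emcn, Sox18, Plvap, Vcam1, Sele, Selp), up to 8 other called members with the smallest p, and members that complete a count; Tek and further uncalled members were added after their values were seen. Other lists name up to 3 genes with the smallest p. The 5 most alike genes are those with the highest Pearson r to the mean standardized log2 CPM of the members. Exon overlaps and lengths came from GENCODE M21 of GRCm38, and upstream bases from the RefSeq promoter table. Alternatives were DESeq2 1.42.0, median-ratio size factors, a minimal filter, the replicate block, removal of the 8 skin-rich libraries, fits to the compared groups alone, and leaving out each library.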

Additional observations from a re-analysis of the deposited data

Results flagged for a closer look

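In 30 of 210 combinations of a member and a group (14.3%), the highest or lowest of the 5 tumours stood so far from its nearest neighbour, relative to the group's range, that Dixon's test singled it out at the 95% level. For normally distributed values chance does this in about 1 of 20 groups. CPM values need not be normal, and that was not tested, so 1 in 20 is only a rough mark. Members of 1 tumour are not independent.

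Of these, 17 were high values in replicate 5 of mXTX301 at day 7. Among junction and surface genes it had 90.83 CPM of Pecam1, 87.24 CPM of Cdh5, 25.74 CPM of Esam, 9.933 CPM of Clec14a, 33.15 CPM of Ptprb and 120.7 CPM of Plvap. Among transcription factors it had 3.535 CPM of Sox17, 3.966 CPM of Sox7 and 7.969 CPM of Erg. Its receptor genes Tek, Robo4 and S1pr1 stood at 18.71, 15.96 and 32.96 CPM, and its secreted proteins Mmrn2 and Vwf at 26.75 and 52.84 CPM. The capture genes Sele, Selp and Ackr1 stood at 2.132, 16.24 and 10.23 CPM. This tumour also had the highest fibroblast, adipocyte, macrophage, platelet, lymphatic, mast-cell and pericyte sums of its group, and their part in these values was not tested.

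Replicate 1 of the unmasked control at day 7 was low in Sox18 (2.822 CPM), Sox7 (0.4174 CPM) and Tie1 (7.898 CPM). Single values elsewhere were 1.168 CPM of Sox7 in mXTX301 replicate 5 at day 4 and 0.9856 CPM of Sox17 in unmasked-control replicate 1 at day 4, both high. In vehicle tumours at day 4, replicate 3 was high in Robo4 (12.02 CPM) and S1pr1 (18.25 CPM), and replicate 5 was high in Ecscr (15.49 CPM) and low in Tal1 (0.4355 CPM). In vehicle tumours at day 7, replicate 3 was high in Notch4 (30.76 CPM) and Ackr1 (1.477 CPM), and replicate 5 was high in Mmrn1 (9.988 CPM) and Cldn5 (10.11 CPM).

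The drug effect differed between the days, by a test of the difference of differences with edgeR, in 8 cases. For mXTX301 it was Sox17, at a log2 difference of 1.96. For the unmasked control these were Sox18 at 1.15, Pcdh12 at 1.51, Mmrn2 at 0.98, Notch4 at 0.84, Rasip1 at 1.32 and Icam2 at 0.85, all upward, and Robo1 at -1.996. The calls of the unmasked control rested on single libraries, as given above.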

How the results depend on the processing

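Counts of members called against vehicle stayed within 1.5 times of those reported under DESeq2, median-ratio size factors, a minimal low-count filter, the replicate block, removal of the skin-rich libraries and fits to the compared groups alone, except for the unmasked control at day 7, where 4 became 7 under DESeq2 and 7 under the replicate block. No member's call changed sign in any alternative run. For the day difference of the mXTX301 effect, 1 member became 7 under DESeq2, 2 under the replicate block and 5 without the skin-rich libraries. For that of the unmasked control, 7 became 11 under DESeq2, 3 under the replicate block, 0 without the skin-rich libraries and 4 in a fit to the compared groups alone. The causes were not tested. Leaving out 1 library at a time gave 8 to 13 members for mXTX301 at day 4, 8 to 14 at day 7, 14 to 18 for the unmasked control at day 4 and 4 to 9 at day 7. It gave 1 to 4 for the day difference of mXTX301, 0 to 16 for that of the unmasked control, 0 to 1 for vehicle between days and 0 for the drugs against each other on either day. Replicate numbers showed no clear pairing of the samples, though the check does not settle the point. Over 2000 genes, same-numbered libraries of different groups had a mean r of 0.0436 in their deviations from group means. Their r ran from -0.65 to 0.764, and other pairs had a mean r of -0.00442. Of 75 same-numbered pairs 35 exceeded 0.1, and the share of other pairs that did was not counted. Of 30 libraries 9 correlated best with their own number. Sele rests on few reads, with a median count of 10 or less at day 4 in each group and of 8 in vehicle tumours at day 7, which limits its precision. Ackr1 had a median count of 14 in vehicle tumours at day 7.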
